A study of Mus musculus with 15 samples.

Results

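Tcim, Nell1, Clptm1l, Tmem255a and Cib3 are 5 genes whose array signal was high in mouse islet beta cells and that have been studied little in the islet. They were picked out of 19938 measured genes for lower signals in alpha cells or in Pdx1-deficient cells than in beta cells. The rule does not say which comparison brought in each gene. By group means, Tcim, Nell1 and Clptm1l were lowest in Pdx1-deficient cells, and Tmem255a and Cib3 in alpha cells. As values of both comparisons with beta cells may have chosen the genes, they are given here as a description, without a test. Each gene was read by the single transcript cluster that the platform annotation assigns to it: 10577641 for Tcim, 10553450 for Nell1, 10406067 for Clptm1l, 10604175 for Tmem255a and 10579649 for Cib3.

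Beta cells make insulin and alpha cells make glucagon, and the homeobox factor Pdx1 is a central regulator of beta-cell genes. The 5 genes belong to separate families. Tcim encodes a small protein that binds Chibby, an inhibitor of β-catenin, and is known to raise Wnt target gene expression. Nell1 encodes a secreted glycoprotein with EGF-like and von Willebrand factor C repeats, best known from bone formation. Clptm1l encodes a membrane protein of the endoplasmic reticulum that has been described as a scramblase for a precursor of the glycosylphosphatidylinositol (GPI) anchor, the lipid that holds many proteins at the cell surface. Tmem255a encodes a predicted multi-pass membrane protein with no well established role. Cib3 encodes a calcium- and integrin-binding protein with EF hands, known as a partner of the mechanotransduction channels of hair cells.

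RNA from sorted islet cells was hybridised to 15 Affymetrix Mouse Gene 1.0 ST arrays, 5 for each of 3 sample titles, all from mice on a mixed B6 and BALB/C background. Arrays titled beta carry the genotype label glucagon-Cre; RosaYFP, and arrays titled alpha the label RIP-CreER; Pdx1fl/+, RosaYFP, which are drivers usually active in the other cell type. These controls were YFP-sorted cells of mice aged 2 months, and the 5 Pdx1-deficient (PKO) samples, labelled as reprogrammed cells, were taken 5 days after tamoxifen. The labels name no driver for the Pdx1-deficient cells, do not say whether controls received tamoxifen, and do not name separate animals, so the spread behind each p-value may be partly or wholly technical. As arrays were of bulk RNA, fewer cells of a type and less RNA per cell cannot be told apart.

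Values are log2 signals. Array medians lay between 5.88 and 6.05, and the 25th percentiles between 4.55 and 4.80. Marker lists followed the titles of alpha and beta arrays. In alpha against beta arrays 5 of 10 measured beta-cell markers were lower (Ucn3, Slc2a2, G6pc2, Nkx6-1 and Pdx1; limma adjusted p under 0.05). There 4 of 8 alpha-cell markers were higher (Mamld1, Etv1, Slc7a2 and Irx2), where 3.15% of all genes were lower and 0.893% higher. In Pdx1-deficient against beta arrays 1 of the 10 beta-cell markers was lower (Ucn3, limma adjusted p = 0.0389), where 0.928% of all genes were. None of the 8 alpha-cell markers passed there. Pdx1 itself differed by -1.39 (limma adjusted p = 0.0575, passing in 4 of 25 alternative fits). Hormone genes did not separate the groups: Gcg read 12.15 to 12.51 in beta arrays and Ins2 read 11.86 to 12.09 in alpha arrays. Several arrays stood apart. Pdx1 read 9.12 in the array titled Pdx1-deficient replicate 1, inside the beta range of 8.85 to 9.33, and the mean of the beta-cell markers there was 10.34, also inside the beta range of 10.10 to 10.37. Within the Pdx1-deficient group, replicates 4 and 5 differed most from the other 3, with mean correlations to their group of 0.937 and 0.940, and their medians of 6.03 and 6.05 were the highest of the 15. Alpha replicate 2 had an alpha-marker mean of 8.43, where the other alpha arrays had 9.21 to 9.33 and beta arrays 8.19 to 8.33. Its beta-cell marker mean of 9.30 lay within the 8.91 to 9.43 of the other alpha arrays, below the beta range. Alpha replicate 5 had an acinar-marker mean of 10.90, where the other alpha arrays had 5.96 to 7.14.

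Sequence before the annotated start was at hand for part of the set. The RefSeq promoter table (build GRCm38.p6) held 3 of the 5 genes and had no entry for Tcim or Clptm1l, and the window listed for Cib3 lies inside the gene and is not printed. The windows of Nell1, with its lowest mean in Pdx1-deficient arrays, and Tmem255a, with its lowest in alpha arrays, are shown. They run 5′ to 3′ on the strand of the gene, so that 1 gene of each kind can be compared. Capitals mark the GC-box letters GGGCGG on either strand. Nell1 is read on the plus strand at chr7:49975100-49975349 and Tmem255a on the minus strand at chrX:38252497-38252731.
Nell1: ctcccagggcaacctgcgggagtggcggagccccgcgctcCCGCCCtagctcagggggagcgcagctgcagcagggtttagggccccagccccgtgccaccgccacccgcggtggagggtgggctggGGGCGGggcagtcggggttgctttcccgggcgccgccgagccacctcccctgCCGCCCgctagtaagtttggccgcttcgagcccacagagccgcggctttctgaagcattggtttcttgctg
Tmem255a: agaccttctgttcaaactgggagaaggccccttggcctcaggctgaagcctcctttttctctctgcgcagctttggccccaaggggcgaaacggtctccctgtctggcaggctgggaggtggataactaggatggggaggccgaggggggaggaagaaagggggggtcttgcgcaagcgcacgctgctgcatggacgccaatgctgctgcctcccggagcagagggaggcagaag

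The Nell1 window of 250 bases had a GC content of 72.0% and 22 CpG dinucleotides, where the median window of that length among 32851 in the table had 52.4% and 6. It held 3 matches to GGGCGG, letters that 32.7% of all windows hold. It also held 1 match to the E-box CANNTG, found in 66.2% of windows. The Tmem255a window of 235 bases had a GC content of 62.6% against a median of 51.9%, with 9 CpG against 5, and held 0 matches to GGGCGG (30.6% of windows) and 0 to CANNTG (64.1%). Neither window held the homeodomain core TAAT (54.9% and 53.9% of windows of those lengths) or the TATA box TATAAA (12.4% and 11.9%). All motifs were searched on both strands, and no match overlapped another motif. The absence of a match says only that these letters are not in these windows.

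Tcim, the Wnt-linked gene, showed the widest range of the set across arrays. In beta arrays 1 to 5 it read 7.66, 9.46, 8.82, 8.65 and 8.84. Alpha arrays 1 to 5 read 7.18, 6.41, 6.59, 6.58 and 6.67. Pdx1-deficient arrays 1 to 5 read 7.24, 6.84, 6.12, 3.98 and 4.23. Every alpha and every Pdx1-deficient array was below every beta array, and Pdx1-deficient replicates 4 and 5 lay well below the rest of their group. These 2 readings were under the 25th percentile of their own arrays (4.80 in each), so they may hold background, and the difference there may be understated. The mean was 8.69 ± 0.65 (SD, n = 5) in beta, 6.69 ± 0.29 in alpha and 5.68 ± 1.50 in Pdx1-deficient arrays. The difference from beta was -2.00 in alpha and -3.00 in Pdx1-deficient arrays, or -1.95 without Pdx1-deficient replicates 4 and 5.

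Nell1, the secreted factor, had the same order of groups. Beta arrays 1 to 5 read 9.91, 9.32, 9.24, 9.93 and 10.21. In alpha arrays 1 to 5 it read 7.85, 8.22, 8.34, 8.88 and 8.33. Pdx1-deficient arrays 1 to 5 had 8.97, 7.79, 7.94, 6.66 and 7.66. Again no alpha or Pdx1-deficient array reached the beta range, and the Pdx1-deficient group held both the highest and the lowest of the 10 non-beta readings. The mean was 9.72 ± 0.42 (SD, n = 5) in beta, 8.32 ± 0.37 in alpha and 7.80 ± 0.82 in Pdx1-deficient arrays, differences from beta of -1.40 and -1.92.

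Clptm1l, the endoplasmic reticulum protein gene, was the tightest of the 5 in control cells. It read 8.87, 8.63, 8.50, 8.68 and 8.80 in beta arrays 1 to 5. Alpha arrays 1 to 5 read 7.28, 7.88, 7.43, 7.35 and 7.26. In Pdx1-deficient arrays 1 to 5 the readings were 7.78, 7.53, 7.64, 6.26 and 6.32. Both groups lay wholly below beta, and replicates 4 and 5 of the Pdx1-deficient group lay below every alpha array while the other 3 lay above 4 of the 5 alpha arrays. Means were 8.70 ± 0.14 (SD, n = 5) in beta, 7.44 ± 0.26 in alpha and 7.11 ± 0.75 in Pdx1-deficient arrays. The difference from beta was -1.26 in alpha and -1.59 in Pdx1-deficient arrays, or -1.05 without Pdx1-deficient replicates 4 and 5.

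Tmem255a, the predicted membrane protein gene, was lowest in alpha arrays. Beta arrays 1 to 5 read 9.80, 10.01, 9.44, 9.35 and 9.09. Alpha arrays 1 to 5 read 7.44, 9.05, 6.21, 7.06 and 7.09. Pdx1-deficient arrays 1 to 5 read 8.12, 9.37, 9.08, 8.28 and 8.44. Alpha replicate 2, the array with low alpha-cell markers, was close to the beta range while the other 4 alpha arrays were far below it. Pdx1-deficient replicate 2 was inside the beta range. The mean was 9.53 ± 0.37 (SD, n = 5) in beta, 7.37 ± 1.04 in alpha and 8.66 ± 0.54 in Pdx1-deficient arrays, differences from beta of -2.16 and -0.88.

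Cib3, the calcium-binding protein gene, had the widest spread of the set after Tmem255a in alpha arrays and overlapped beta in 3 Pdx1-deficient arrays. It read 9.11, 8.82, 7.41, 8.03 and 8.38 in beta arrays 1 to 5. Alpha arrays 1 to 5 read 5.37, 7.25, 5.86, 6.11 and 6.64. Pdx1-deficient arrays 1 to 5 read 7.69, 6.60, 7.58, 7.54 and 6.79. Alpha replicate 2 was again the highest of its group, and all 5 alpha arrays were below the lowest beta array. The mean was 8.35 ± 0.67 (SD, n = 5) in beta, 6.25 ± 0.72 in alpha and 7.24 ± 0.50 in Pdx1-deficient arrays, differences from beta of -2.11 and -1.11.

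**Figure D1:**
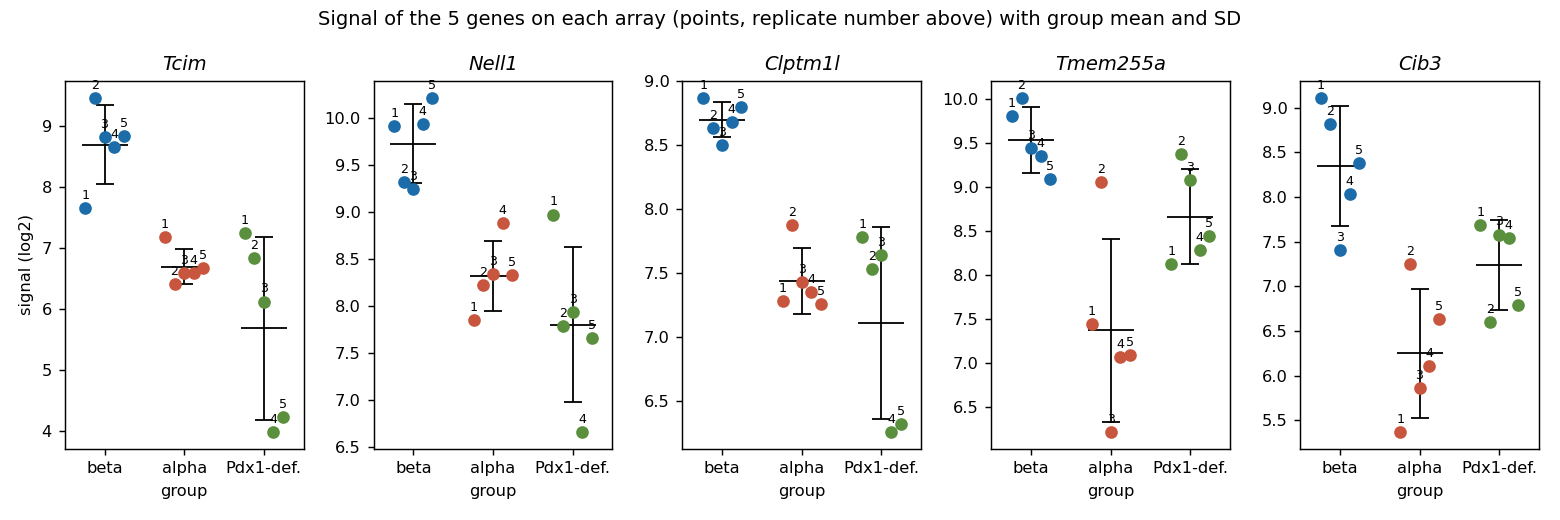
Log2 signal (vertical axis, separate scale for each gene) of Tcim, Nell1, Clptm1l, Tmem255a and Cib3 in each array of the 3 groups; points are arrays with their replicate number, bars the mean and SD of 5 arrays. For Tcim, Nell1 and Clptm1l no Pdx1-deficient array reaches the beta range, while Tmem255a overlaps beta in 1 and Cib3 in 3 Pdx1-deficient arrays.

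All 5 genes were below the beta range in all 5 alpha arrays, and 3 of the 5, Tcim, Nell1 and Clptm1l, were so in all 5 Pdx1-deficient arrays. Over all genes, the alpha arrays lay wholly below the beta arrays for 4.05% and the Pdx1-deficient arrays for 3.18%. As the 5 were chosen on these comparisons, nothing is read from their counts. Counted by array, Pdx1-deficient replicates 1 to 4 each had 4 of the 5 genes below the beta range and replicate 5 had all 5. In replicate 3 this includes Tmem255a at 9.08, next to a lowest beta reading of 9.09. No share of all genes was counted for single arrays, so nothing is read from these counts.

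Pdx1-deficient replicate 1 combined beta-level Pdx1 with low readings of most of the set. Tcim differed from its beta mean by -1.44 there, Tmem255a by -1.41, Clptm1l by -0.92 and Nell1 by -0.75, each under the lowest beta array, while Pdx1 differed from its beta mean by -0.03. Cib3, at 7.69, was inside its beta range of 7.41 to 9.11. Replicate 1 is among the arrays that the choice of the genes used. The share of all genes below the beta range in it was not counted, so nothing is read from these readings. In replicate 4, which had the lowest Pdx1 signal (6.53), Tcim, Nell1 and Clptm1l each had the lowest reading of their group, whereas Tmem255a was lowest in replicate 1 and Cib3 in replicate 2. Replicates 4 and 5, where Tcim, Nell1 and Clptm1l were lowest, are also the arrays with the highest medians. They had the lowest beta-cell marker means of all arrays too, 8.73 and 8.87. The part of either array difference in the readings of Tcim, Nell1 and Clptm1l was not tested.

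**Figure D2:**
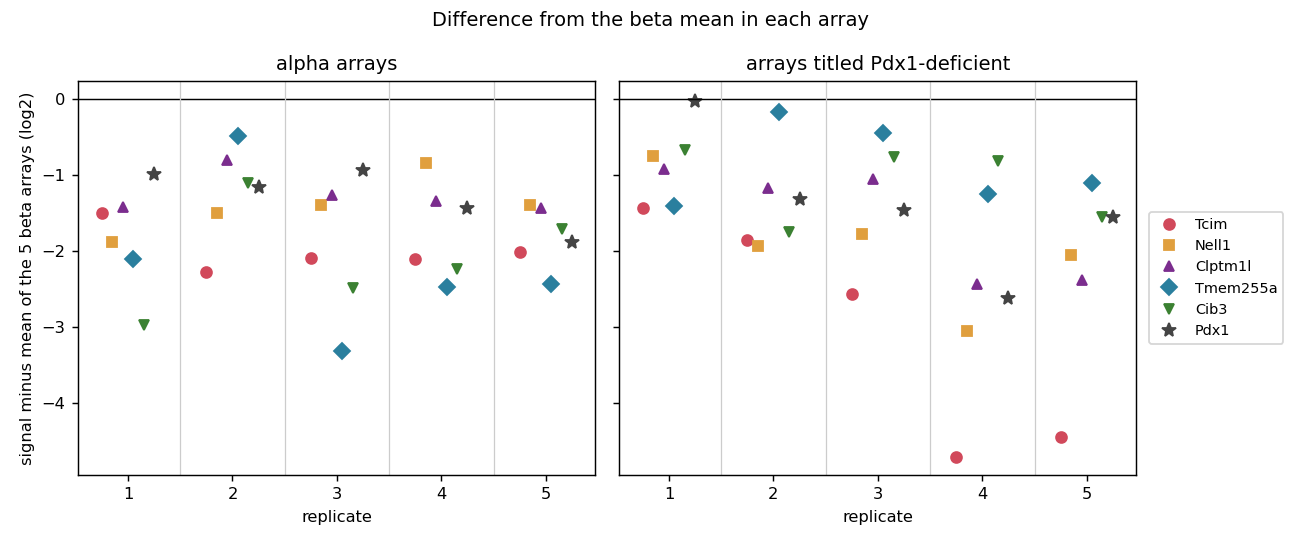
Signal minus the mean of the 5 beta arrays (log2, vertical axis) for the 5 genes and Pdx1 in each alpha array (left) and each array titled Pdx1-deficient (right), by replicate number. In Pdx1-deficient replicate 1 the Pdx1 star lies at -0.03 while all 5 genes lie between -0.67 and -1.44.

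The comparison of Pdx1-deficient with alpha cells was the one pair of titles that the choice of genes did not use. It sets no beta array against another group. But genes picked for low values in Pdx1-deficient cells tend towards lower values there than in alpha cells, and those picked in alpha cells the reverse. The sign, size and p-value are therefore partly given by the choice. None of the 5 genes passed in limma over all 15 arrays and 19938 genes, where 0 genes passed (0% of those tested, 1197 at an unadjusted p under 0.05). Tcim differed by -1.01 (95% interval -2.17 to 0.16, limma adjusted p = 0.897), Nell1 by -0.52 (-1.22 to 0.19, adjusted p = 0.950) and Clptm1l by -0.33 (-0.91 to 0.24, adjusted p = 0.970). Tmem255a was higher in Pdx1-deficient than in alpha arrays by 1.29 (0.43 to 2.15, limma unadjusted p = 0.00621, adjusted p = 0.518), and Cib3 by 0.99 (0.21 to 1.77, unadjusted p = 0.0159, adjusted p = 0.662). The differences of Tcim, Nell1 and Clptm1l rested on Pdx1-deficient replicates 4 and 5: without these they were 0.05, -0.09 and 0.21.

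Tmem255a passed once alpha replicate 2 was left out, with a difference of 1.71 (limma adjusted p = 0.0114, over its alternatives 0.00897 to 0.899), and 145 genes then passed. Without both that array and Pdx1-deficient replicate 1 the difference was 1.84 (adjusted p = 0.00897). Tmem255a passed in 3 of 25 alternatives, each of them without alpha replicate 2. As the rule that chose the genes used low alpha readings, the size and p-value of this difference are partly given by the choice. The 4 other alpha readings of Tmem255a, 6.21 to 7.44, lay below all 5 Pdx1-deficient readings, while alpha replicate 2 at 9.05 lay among them. The share of all genes that part in this way without that array was not counted, so nothing is read from it. Cib3 did not pass in any alternative (adjusted p from 0.134 to 0.977).

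**Figure D3:**
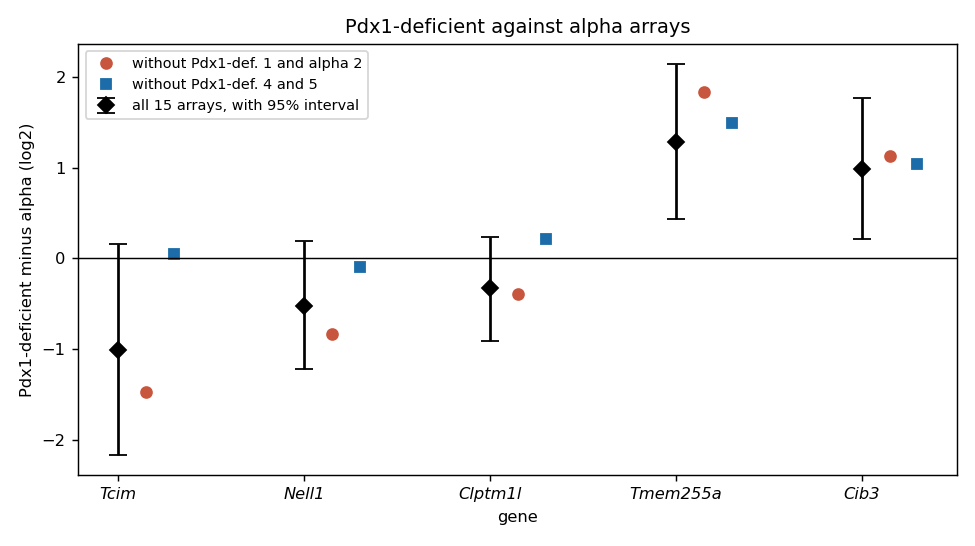
Pdx1-deficient minus alpha difference (log2, vertical axis) for each gene; black diamonds are the fit to all 15 arrays with its 95% interval, red circles leave out Pdx1-deficient replicate 1 and alpha replicate 2, and blue squares leave out Pdx1-deficient replicates 4 and 5. The Tcim, Nell1 and Clptm1l squares lie at 0.05, -0.09 and 0.21, and the Tmem255a circle at 1.84.

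Set against the alpha-beta difference, the set parted in 2. The change from beta to Pdx1-deficient arrays was 150% of the change from beta to alpha arrays for Tcim, 137% for Nell1 and 127% for Clptm1l, but 40% for Tmem255a and 53% for Cib3. Without Pdx1-deficient replicates 4 and 5 these were 98%, 106%, 83%, 31% and 50%. These shares set against each other the 2 differences that the choice of the genes used, so nothing is read from the split.

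Array-to-array variation within groups was compared by correlating deviations from the group means over the 15 arrays, as a description. Tcim and Clptm1l had a Pearson r of 0.73 and Nell1 and Clptm1l one of 0.66, whereas Tmem255a and Cib3 had 0.37. Without Pdx1-deficient replicates 4 and 5 the first was -0.37 and the second 0.38 (13 arrays), so the shared deviation of Tcim and Clptm1l rested on those 2 arrays. Clptm1l and Cib3 had 0.32 with these arrays and 0.73 without them.

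The genes most like each member over the 15 arrays, by Pearson r, are given as a description, since all share arrays and the difference between groups. For Tcim these were Fam114a1 (0.935), the coatomer subunit gene Arcn1 (0.920) and the cargo receptor gene Lman1 (0.915). For Nell1 they were the secreted growth factor gene Mydgf (0.952), Tm9sf4 (0.944) and the selenoprotein gene Selenom (0.932). Clptm1l had the closest neighbours: Cnpy2 (0.965), the translocon-associated protein gene Ssr3 (0.964) and Ddrgk1 (0.960). Tmem255a was most like the ETS factor gene Etv5 (0.949), the Notch-ligand gene Dner (0.939) and Rtn4rl1 (0.939). Cib3 was most like the lysosomal membrane protein gene Glmp (0.896), the mannosyltransferase gene Alg2 (0.891) and the signal recognition particle receptor gene Srprb (0.891).

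By deviations from the group means other genes came first, apart from Ssr3, which was again among the first 3 for Clptm1l (0.948), after Ss18l2 and Tmed3 (both 0.951). For Tcim they were Ddx17 (0.898), Nhsl2 (0.896) and Nudcd1 (0.871), and for Nell1 Tmem147 (0.918), Akr1c19 (0.913) and Arfrp1 (0.901). For Tmem255a they were Vrk2 (0.906), Filip1 (0.892) and Cdk14 (0.883), and for Cib3 Prelid2 (0.812), Snx12 (0.804) and Tmem223 (0.799). Etv5, nearest to Tmem255a over all arrays, had the same order of groups, with 8.83 ± 0.16 (SD, n = 5) in beta, 6.44 ± 1.22 in alpha and 7.52 ± 0.46 in Pdx1-deficient arrays. Mydgf, nearest to Nell1, had 8.11 ± 0.35, 6.84 ± 0.23 and 6.58 ± 0.75.

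The nearest measured genes on either side in the reference gene order did not pass in any of the 3 comparisons (limma adjusted p from 0.111 up). For Tcim these were Zmat4 and Ido2, with differences from beta between 0.08 and 0.21. Tert, which encodes the catalytic subunit of telomerase and lies next to Clptm1l, read 5.64 in beta, 5.75 in alpha and 5.69 in Pdx1-deficient arrays. Slc6a3, on its other side, differed from beta by 0.21 in Pdx1-deficient and 0.15 in alpha arrays. Rab8a, a vesicle-traffic GTPase gene next to Cib3, had the largest differences of the 10 neighbours, -0.92 in Pdx1-deficient and -0.85 in alpha arrays (limma adjusted p = 0.134 and 0.147).

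Paralogs were measured for 4 of the 5 genes, and 2 of 5 fell in alpha cells while 0 of 5 passed in Pdx1-deficient cells (limma adjusted p under 0.05). Over all genes 4.04% passed in alpha cells, 3.15% lower and 0.893% higher, and 1.09% in Pdx1-deficient cells, 0.928% lower and 0.16% higher. Clptm1, the paralog of Clptm1l, read 9.38, 8.83, 9.20, 9.03 and 9.44 in beta arrays 1 to 5, and 8.12, 8.76, 8.56, 8.43 and 8.52 in alpha arrays. The groups did not overlap, and it fell by 0.70 in alpha cells (SE 0.15, limma adjusted p = 0.0174, highest over 25 alternatives 0.0489). In Pdx1-deficient cells it differed by -0.54 (adjusted p = 0.0767), with all 5 arrays below beta. Cib1, a ubiquitous paralog of Cib3, fell by 0.83 in alpha cells (SE 0.19, limma adjusted p = 0.0279, highest over the alternatives 0.0724) and differed by -0.37 in Pdx1-deficient cells (adjusted p = 0.266). Nell2 (4.59 to 4.82 in beta arrays) and Cib4 (4.58 to 4.96) read near the 25th percentile of their arrays in every group, with differences of at most 0.09. Tmem255b differed by 0.22 in Pdx1-deficient and 0.21 in alpha arrays, and did not pass (limma adjusted p = 0.244 and 0.285). Cib2 was not among the single-symbol clusters.

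Genes of Wnt and β-catenin signalling, the pathway Tcim acts on, showed 1 call among 24 measured: the Wnt co-receptor gene Lrp5 fell by 0.63 in alpha cells, from 7.01 ± 0.33 to 6.38 ± 0.11 (SD, n = 5; limma adjusted p = 0.0199). Of all genes 4.04% passed in alpha cells. None of the 24 passed in Pdx1-deficient cells, where Myc had the largest difference (-0.67, limma adjusted p = 0.221). The list's median difference was -0.04 in Pdx1-deficient and 0.04 in alpha cells, where all genes had 0.06 and 0.04. Without Pdx1-deficient replicate 1 and alpha replicate 2, 3 fell in alpha cells, where 1037 of 19938 genes fell. Between Pdx1-deficient and alpha cells the Tcim partner Cby1 (Chibby) had the largest difference, 0.59 (limma adjusted p = 0.800).

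Of the 7 measured receptors and partners of NELL proteins, 0 passed in any comparison. Atraid, which encodes a membrane protein known to bind NELL1, had the largest difference from beta in both, -0.64 in Pdx1-deficient and -0.43 in alpha cells (limma adjusted p = 0.113 and 0.237). The list's medians were 0.19 and 0.08.

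Among 30 GPI-anchor genes, the pathway to which Clptm1l has been linked, 2 passed in Pdx1-deficient cells and 6 in alpha cells. Of all genes 1.09% passed in Pdx1-deficient and 4.04% in alpha cells, and no set test was run. In Pdx1-deficient cells Dpm3, a subunit of the dolichol phosphate mannose synthase, fell by 0.87 from 9.28 ± 0.24 to 8.41 ± 0.38 (SD, n = 5; limma adjusted p = 0.0466), and the mannosyltransferase gene Pigz rose by 0.41 (limma adjusted p = 0.0497). These calls passed in 10 and 4 of 25 alternatives, with highest adjusted p of 0.342 and 0.343. In alpha cells 4 fell and 2 rose. The falls were led by Piga, the catalytic subunit of the first step of the pathway, at -1.41 (limma adjusted p = 0.0462), Dpm3 at -0.96 (adjusted p = 0.0160) and the transamidase gene Pigk at -0.86 (adjusted p = 0.0135). Dpm3 and Pigk passed in all 25 alternatives and Piga in 12. The list's median was -0.14 in Pdx1-deficient and -0.07 in alpha cells. Without Pdx1-deficient replicate 1 and alpha replicate 2, 3 fell and 1 rose in Pdx1-deficient cells, where 510 of 19938 genes fell and 116 rose. Without Pdx1-deficient replicates 4 and 5, 0 passed there, where 2 of 19938 genes passed.

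Among 8 partners of CIB proteins, which include channel subunits of hair cells and integrins, 0 passed. Lhfpl5, a tetraspan subunit of the hair-cell channel complex, had differences of -0.96 in Pdx1-deficient cells (limma adjusted p = 0.0512, 0.0337 to 0.370 over the alternatives) and -0.72 in alpha cells (adjusted p = 0.0807). Of 21 measured EF-hand calcium sensor genes 1 passed in Pdx1-deficient and 2 in alpha cells, where 1.09% and 4.04% of all genes passed. Kcnip1, which encodes a calcium-binding partner of potassium channels, fell by 1.55 in Pdx1-deficient cells (SE 0.34, limma adjusted p = 0.0429, highest over the alternatives 0.276, passing in 11 of 25). Without Pdx1-deficient replicates 4 and 5, 0 of the 21 passed there, where 2 of 19938 genes passed. In alpha cells Kcnip1 fell by 2.31 (limma adjusted p = 0.00380, highest 0.0130). Kcnip2 fell by 0.31 in alpha cells (limma adjusted p = 0.0447, passing in 9 of 25 alternatives). Medians of the CIB partners were 0.17 and 0.09, and of the calcium sensors 0.01 and -0.03. Between Pdx1-deficient and alpha cells 0 of the 95 genes of these 6 lists passed.

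**Figure D4:**
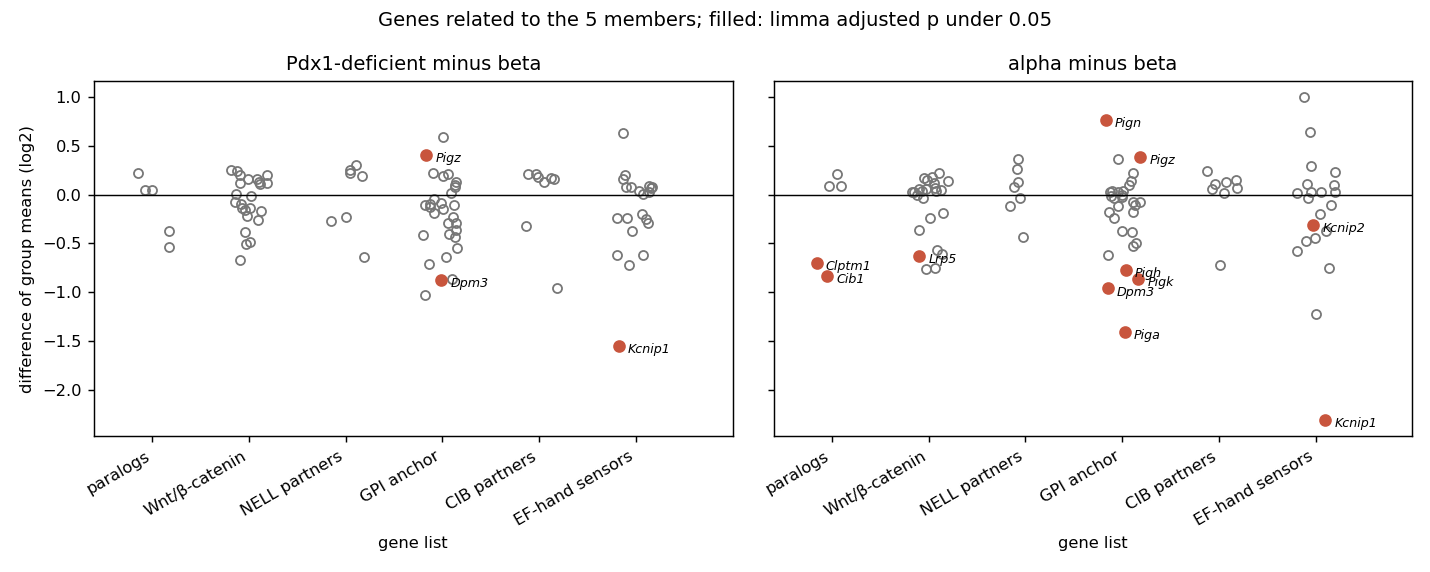
Difference of group means (log2, vertical axis) for each measured gene of 6 lists related to the 5 genes, in Pdx1-deficient minus beta (left) and alpha minus beta (right); filled red points passed limma at an adjusted p under 0.05 over all genes and are named. Kcnip1 has the largest fall in both panels. Of the GPI-anchor genes 6 are filled in the alpha panel and 2 in the Pdx1-deficient panel, where 4.04% and 1.09% of all genes passed.

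Other cell types were compared by their marker means beside these results. Acinar markers (10 of 12 measured) ran from 5.87 to 6.81 in beta, 5.86 to 6.92 in Pdx1-deficient and, apart from replicate 5, 5.96 to 7.14 in alpha arrays. Alpha replicate 5, with its acinar mean of 10.90, was neither the highest nor the lowest alpha array for Tcim, Nell1, Tmem255a or Cib3, and was the lowest for Clptm1l (7.26, next to 7.28 in replicate 1). Stromal markers (8 of 8) were 5.48 to 5.76 in beta, 5.59 to 6.33 in alpha and 5.78 to 6.02 in Pdx1-deficient arrays. Endothelial (6 of 6) and leukocyte (6 of 6) means lay between 4.82 and 5.43 in all groups, duct means (6 of 8) between 6.16 and 6.64. In each array 3 or 4 of the 6 leukocyte markers read below the 25th percentile of that array. Single markers that passed in alpha against beta cells were Rbp4 of the delta list and the pericyte gene Rgs5 of the stromal list, both higher, and the claudin gene Cldn7 of the duct list, lower (named after their values were seen), and 0 genes of these lists passed in Pdx1-deficient cells. Delta, PP and epsilon markers (6 of 6) were 8.99 to 9.47 in beta, 9.02 to 9.79 in alpha and 8.69 to 9.30 in Pdx1-deficient arrays. The part of these cell types in the differences of the 5 genes was not tested.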

How the data were processed

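Gene expression was measured in 15 arrays of sorted mouse islet cells, 5 for each sample title. The deposited values are log2 signals, 1 per transcript cluster, made by the authors with Affymetrix Expression Console per the submitters' processing notes. The sources used here do not give the summarization, the background correction, the log base or the genome build; the range of 2.11 to 13.45 shows a log scale, and base 2 is assumed. Of 35556 clusters, 21789 had 1 gene symbol in the platform annotation, and each of 19938 genes was read by its cluster with the highest mean.

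All genes were fitted with limma 3.58.1 (lmFit and eBayes, R 4.3.3) with 3 group means over 15 arrays and no block, and p-values were adjusted by Benjamini and Hochberg over 19938 genes at a threshold of 0.05. The fit was tested on simulated data. Alternatives were array medians subtracted, quantile normalization, removal of dim genes, trend and robust moderation, 2-group fits, mean of clusters, a replicate block and leaving out arrays; leaving out Pdx1-deficient replicates 4 and 5, or alpha replicates 2 and 5, was added after seeing the data. The rule named the 5 genes, their paralogs, per list and comparison up to 3 genes past the threshold (or the 1 with the largest difference), the 3 most similar genes and the flanking genes. Symbols starting with Gm and a digit or ending in Rik were left out of the most similar genes. Members and lists were chosen with earlier results of these data known. The number of arrays limits precision.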

Additional observations from a re-analysis of the deposited data

Results flagged for a closer look

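Clptm1l in alpha replicate 2 read 7.88, with the next highest alpha array at 7.43. Its gap was 0.738 of the group's range, above Dixon's critical value of 0.71 for 5 samples. This was 1 of 33 groups of 5 arrays examined, over the 5 genes, Pdx1 and the 5 measured paralogs, and chance flags about 1 in 20. Alpha replicate 2 is the array with the low alpha-marker mean of 8.43, and the part of that in the Clptm1l reading was not tested.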

How the results depend on the processing

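The difference from beta kept its sign for all 5 genes, in alpha and in Pdx1-deficient arrays, under every alternative run. As the genes were chosen on these comparisons and the alternatives reuse the same arrays, nothing is read from the kept sign. Without Pdx1-deficient replicates 4 and 5, Tcim differed from beta by -1.95 and Clptm1l by -1.05, and their differences from alpha turned to 0.05 and 0.21, while that of Nell1 was -0.09. The Tmem255a difference between Pdx1-deficient and alpha arrays passed limma without Pdx1-deficient replicate 1 and alpha replicate 2 (1.84) and without alpha replicates 2 and 5 (1.76); with single arrays left out it ran from 1.00 to 1.71. Arrays were not taken as paired, since not every same-numbered pair correlated over 0.1 in its deviations from the group means. The mean was 0.104 for beta with alpha (0.005 to 0.224, 3 of 5 pairs over 0.1, other numbers -0.026), 0.016 for beta with Pdx1-deficient and -0.018 for alpha with Pdx1-deficient arrays. The 5 genes were tested only in Pdx1-deficient against alpha arrays, where 0 genes passed with or without the replicate block (1248 at an unadjusted limma p under 0.05 with it). An unchanged call there says little of pairing. With the block 8 genes passed in Pdx1-deficient against beta arrays, where 217 passed without it, and 633 in alpha against beta, where 806 passed without it.

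The number of calls over all genes moved more. For Pdx1-deficient against beta, 217 genes passed (14.7% of them higher), 615 with array medians subtracted (4.23% higher), 29 quantile normalized again, 391 with dim genes removed, 121 with trend and robust moderation, 89 with 2 groups, 626 without Pdx1-deficient replicate 1 and alpha replicate 2, 2 without Pdx1-deficient replicates 4 and 5, and 0 to 548 with single arrays left out (the 0 without Pdx1-deficient replicate 5, 3094 at an unadjusted p under 0.05). For alpha against beta, 806 passed (22.1% higher), 1182 with array medians subtracted (10.4% higher), 1425 without the first pair, and 328 to 1430 with single arrays left out. For Pdx1-deficient against alpha, 0 passed (1197 at an unadjusted p under 0.05), 1 with dim genes removed, 1 with trend and robust moderation, 1 without Pdx1-deficient replicates 4 and 5, 177 without Pdx1-deficient replicate 1 and alpha replicate 2, 98 without alpha replicates 2 and 5, and 0 to 145 with single arrays left out. Apart from fewer arrays or genes, the cause was not tested. Of 36 list counts 8 were above 0, and of 187 recomputations of these, 88 stayed within 1.5 times.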
